A study of Homo sapiens with 4 samples.

Results

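The mRNAs of the proteasome were followed in RNA recovered with the origin recognition subunit ORC1. The members are the 48 protein-coding genes whose GENCODE v44 symbol is PSMA, PSMB, PSMC, PSMD, PSME, PSMF or PSMG followed by a number, out of 63677 genes in the count table. They comprise 19 core genes (PSMA and PSMB), 24 regulatory genes (PSMC, PSMD and PSME) and 5 genes for an inhibitor and for core assembly chaperones (PSMF and PSMG). RNA was precipitated without crosslinking (native RIP-seq) from nuclear lysates of HCT116, a line of human colorectal cancer cells. All 4 libraries came from cells that had carried a pcDNA3.1 plasmid for ORC1-3xFLAG for 48 h after transfection. Of these, 2 are anti-FLAG immunoprecipitates (IP) and 2 are the nuclear lysates before precipitation (Input), numbered replicate 1 and replicate 2 in each group. Neither a control antibody nor cells without the plasmid were analysed here, so IP is compared with Input alone and includes any RNA that sticks to beads or antibody.

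The proteasome is the protease that degrades ubiquitin-tagged proteins in the nucleus and cytoplasm. Its core particle is a barrel of stacked rings, with an outer alpha ring (PSMA) that gates the entry and an inner beta ring (PSMB) that carries the cutting sites. The regulatory particle caps the barrel. Its base holds a ring of ATPases (PSMC) that unfold substrates and its lid holds non-ATPase subunits (PSMD) that include the deubiquitinase. Alternative caps, the activators, are encoded by PSME genes. Each subunit of a ring is present in fixed number, and in mammals a shared transcription factor, NFE2L1, can induce many of the genes together.

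For replicates 1 and 2, the IP libraries held 27483148 and 20280445 counts and the Inputs 14677002 and 9213877. Levels are given as CPM, the count relative to the library total, scaled with TMM (trimmed mean of M values) factors (scaled CPM). Reads assigned to the ORC1 gene came to 333 and 5063 scaled CPM in Input replicates 1 and 2, and to 1108 and 18551 in IP. The plasmid cDNA was codon-optimized, and how far its reads were assigned to the ORC1 gene is not stated. Counts per gene do not separate endogenous from plasmid mRNA. The part of this replicate difference in any result was not tested. Of 8 epithelial markers, 6 were clearly present and the summed level of all 8 was 2324 and 2536 scaled CPM in Input and 4519 and 4136 in IP, with VIL1 and CDX1 at or near 0. Sums of 4 leukocyte and 3 endothelial markers stayed at or below 0.428 and 2.39 scaled CPM, and the sum of 4 fibroblast markers, almost all COL1A1, ranged from 7.90 to 26.9.

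Of the 48 members, 44 passed the filter on low counts and were tested. PSMA8, a testis-specific alpha subunit, and PSMB11, the beta subunit of the thymus proteasome, had 0 counts in every library, which allows up to 0.144 to 0.255 scaled CPM (3 counts per library, counting error only). PSMB8, an interferon-induced beta subunit, had 2 and 11 counts in IP and 3 and 5 in Input and was not tested. The GENCODE v44 identifier of PSMB3 did not match a row of the table, so this beta ring subunit was not analysed here. The tested members had from 21 to 27553 counts per library.

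IP was compared with Input by edgeR's quasi-likelihood test across all 14645 tested genes. A call needed an adjusted p (Benjamini-Hochberg) under 0.05 together with a log2 fold change over 1 for enriched or under -1 for depleted genes. Of the 44 tested members, 8 were enriched, or 18.2%, beside 10.5% of all tested genes, and 5 were depleted, or 11.4%, beside 8.3% of all tested genes. Both IP libraries lay above both Inputs in 17 members, which holds for 33.2% of all tested genes, and below both in 20, which holds for 31.9%. All 8 enriched members are regulatory (PSMC3, PSMC4, PSMD1, PSMD2, PSMD6, PSMD14, PSME1 and PSME4). The 5 depleted members are the core genes PSMB2, PSMB6 and PSMB9 and the core assembly chaperones PSMG1 and PSMG2. The median log2 fold change of the 44 members was -0.11, and that of all tested genes was 0.01. With the replicate number as a block, PSMC1 (1.03, edgeR adjusted p = 6.06e-05), PSMC2 (1.11, edgeR adjusted p = 4.83e-05) and PSMD8 (1.00, edgeR adjusted p = 0.000160) were enriched too, and the 5 depleted members were the same, beside 13.4% of all tested genes enriched and 13.4% depleted in that fit.

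**Figure D1:**
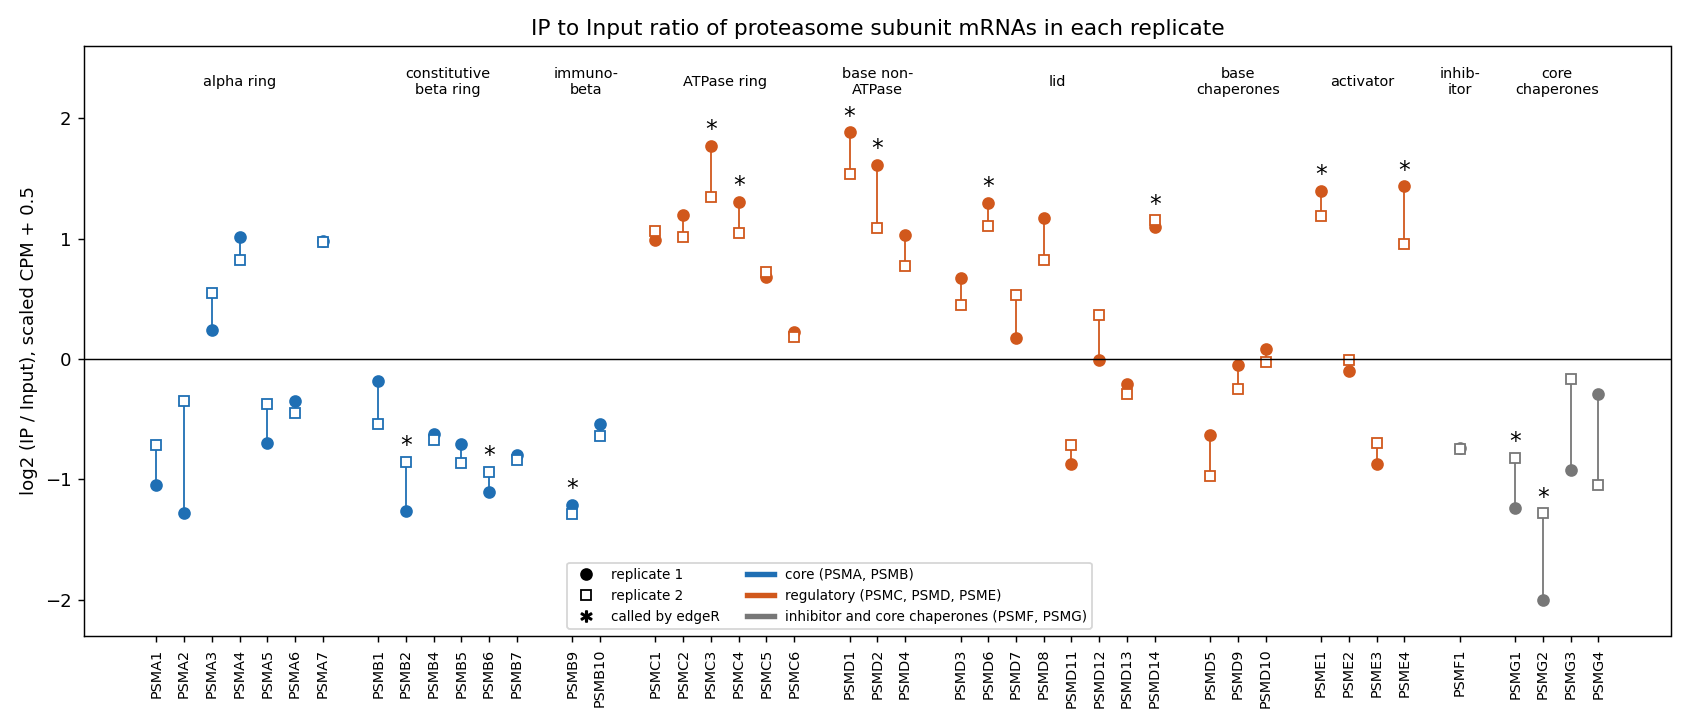
Log2 ratio of IP to Input (scaled CPM with a pseudocount of 0.5) of the 44 tested members, in replicate 1 (filled circles) and replicate 2 (open squares), grouped by role and colored by class. Asterisks mark the 13 members called by edgeR, and all 8 tested PSMB genes lie below 0 while all 6 PSMC genes lie above 0 in both replicates.

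Tandem GAA repeats were a sequence feature of interest to the study, so the members' transcripts were searched for GAAGAAGAA on the sense strand only. It was present in the canonical transcript of 4 of the 44 tested members (9.09%) and of 14.8% of the 12542 tested protein-coding genes. The shorter GAAGAA, which overlaps it, was in 72.7% and 82.4%. The 4 sites are printed with their surroundings (GENCODE v44 transcripts, GRCh38, plus strand, 30 bases, 5′ to 3′), with the repeat in capitals. All lie in coding sequence. Those of PSMA4 and PSMD14 are in the reading frame, where each GAA encodes glutamate, and those of PSMA6 and PSMC1 start at the last base of a codon. The PSMD14 window spans a splice junction, and the other 3 lie within an exon.
PSMA4 (chr15:78548872-78548901): aaaacatgagGAAGAAGAAgccaaagctga
PSMA6 (chr14:35313010-35313039): aaaaaaaagtGAAGAAGAAatttgattgga
PSMC1 (chr14:90260155-90260184): tggggaaaaaGAAGAAGAAaacaaagggac
PSMD14 (chr2:161395200-161408862): taaggctgtaGAAGAAGAAgataagatgac
Of these 4 mRNAs, PSMD14 was enriched. PSMC1 and PSMA4 had log2 fold changes of 1.02 and 0.94 and PSMA6 of -0.44, and these 3 were not called. A match is a description of the letters and no measure of binding.

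The alpha ring was divided. PSMA7 had 440 and 238 scaled CPM in IP (replicate 1 given first throughout) and 223 and 121 in Input, and PSMA4 had 524 and 283 in IP and 260 and 160 in Input. Both IP levels lay above both Input levels for these 2 genes, and replicate 1 was the higher in both groups. Their log2 fold changes of 0.98 ± 0.41 and 0.94 ± 0.38 (SE, n = 2 libraries per group) missed the threshold (edgeR adjusted p = 0.125 and 0.118). With the replicate block they were 0.98 and 0.92 (edgeR adjusted p = 0.000136 and 0.000273), short of the fold change minimum only. Each was enriched when Input replicate 1 was left out (1.53 and 1.37) or IP replicate 2 (1.40 and 1.37). PSMA3 was at 0.36 and overlapped between groups. PSMA1, PSMA2, PSMA5 and PSMA6 had ratios below 0 in both replicates, with log2 fold changes from -1.05 (PSMA2) to -0.44 (PSMA6), none of them called. PSMA1 and PSMA2 were depleted without Input replicate 2 (-1.36 and -1.82). PSMA1 was also depleted with upper-quartile scaling (-1.09) and with library size alone (-1.53), and PSMA2 with no count filter (-1.14). PSMA2 was at 0.14 without Input replicate 1. The alpha ring has 0 members called of 7 tested.

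The canonical transcripts of PSMA1, PSMA2 and PSMA6 share 67.0%, 100% and 81.4% of their bases with an annotated gene on the same strand. These overlapping genes had from 0 to 6 counts per library. PSMB10 (56.1%) and PSMD9 (28.8%) share exons in the same way. The gene overlapping PSMB10 had from 21 to 37 counts per library, the same range as PSMB10 itself. The gene overlapping PSMD9 had 0 or 1. How reads in shared exons were assigned is not stated, so the levels of these 5 genes are uncertain. Input replicate 1 held 30.9 (PSMA1), 27.4 (PSMA2) and 4.98 (PSMA6) scaled CPM, against 176 to 260 for PSMA3, PSMA4, PSMA5 and PSMA7, whose canonical transcripts share no bases with another gene on that strand. Annotated pseudogenes carry the names of PSMA1 (1), PSMA2 (3), PSMA3 (1), PSMA5 (1) and PSMA6 (4).

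The tested beta subunit mRNAs had lower levels in IP. All 8 tested PSMB genes lay lower in both IP libraries than in both Inputs (31.9% of all tested genes). This share is not matched for coding length. The core genes lie in deciles 2 and 3 of coding length, where the median log2 fold changes were -0.53 and -0.36. Of the 8, 3 were depleted (8.3% of all tested genes, and 14.9% of those in these deciles). The cutting sites are encoded by PSMB5 (chymotrypsin-like), PSMB6 (caspase-like) and PSMB7 (trypsin-like). PSMB6 (chr17:4796144-4798502, plus strand) had 67.8 and 53.8 scaled CPM in IP and 146 and 103 in Input, and fell to a log2 ratio of -1.04 ± 0.27 (SE, n = 2; edgeR adjusted p = 0.0354). PSMB5 had 109 and 80.8 in IP and 179 and 148 in Input, and PSMB7 had 143 and 123 in IP and 248 and 222 in Input. Their log2 fold changes were -0.78 ± 0.26 (SE, edgeR adjusted p = 0.0714) and -0.82 ± 0.24 (SE, edgeR adjusted p = 0.0483), short of the fold change minimum in PSMB7 and of both limits in PSMB5. With the replicate block both were short of the fold change minimum only (-0.79 and -0.82, edgeR adjusted p = 0.000782 and 0.000576). The replicate log2 ratios of these 3 catalytic mRNAs lay between -1.10 and -0.71.

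Among the structural subunits of the same ring, PSMB2 was depleted. It had 101 and 92.8 scaled CPM in IP and 244 and 168 in Input, which gave -1.09 ± 0.27 on the log2 scale (SE, n = 2, edgeR adjusted p = 0.0306). PSMB4 was at -0.65 and PSMB1 at -0.35, and neither was called. The call of PSMB2 was lost without IP replicate 1 (-1.11), without IP replicate 2 (-0.98) or Input replicate 1 (-0.75), and that of PSMB6 in the same fits (-1.17, -0.83 and -0.73). Without Input replicate 2, PSMB5 (-1.07) and PSMB7 (-1.05) were called as well.

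The immunoproteasome replaces the catalytic subunits with PSMB8, PSMB9 and PSMB10 after interferon, and its mRNAs were scarce in these cells. PSMB9 had 2.07 and 2.33 scaled CPM in IP and 5.44 and 6.42 in Input, and was depleted at -1.43 ± 0.35 (SE, n = 2, edgeR adjusted p = 0.0304). It rests on 41 to 95 counts per library. The call was lost with DESeq2 (-1.40) and without either IP library (-1.29 and -1.46). PSMB10 had 1.30 and 1.19 in IP and 2.12 and 2.14 in Input and was not called (-0.77). Its level is uncertain, since it shares exons with another gene on its strand. PSMB8 overlaps PSMB9 on the opposite strand by 544 bases at their 5′ ends on chromosome 6.

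The ATPase ring went the other way from the beta ring. All 6 PSMC mRNAs had ratios above 0 in both replicates, which holds for 42.9% of all tested genes, and their median log2 fold change was 1.07. PSMC3 (chr11:47418769-47426473, minus strand) had 925 and 509 scaled CPM in IP and 270 and 200 in Input, which gave 1.61 ± 0.36 on the log2 scale (SE, n = 2, edgeR adjusted p = 0.0241). PSMC4 had 556 and 363 in IP and 225 and 176 in Input (1.20 ± 0.31, SE, edgeR adjusted p = 0.0337). Both were enriched, and in each the lower IP level was above the higher Input level.

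PSMC2 and PSMC1 had log2 fold changes of 1.12 and 1.02 with edgeR adjusted p values of 0.0519 and 0.0532, just past the limit, and were enriched with DESeq2 (1.15 and 1.04), PSMC2 also with a filter of 1 CPM (1.09). PSMC5 (0.70) and PSMC6 (0.20) were not called, and the level of PSMC6 overlapped between groups. PSMC1 and PSMC2 were also called without Input replicate 1 (1.40 and 1.46) or IP replicate 2 (1.31 and 1.49). PSMC4 lost its call without IP replicate 1 (0.90) or Input replicate 2 (0.88), whereas PSMC3 kept it without any 1 library. Exons of NRDE2 cover 76.2% of the exonic bases of PSMC1 on the opposite strand, and 13 annotated pseudogenes carry the name of PSMC1, so its counts are uncertain.

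The base of the regulatory particle holds, beside the ATPases, the large scaffold proteins PSMD1 and PSMD2 and the ubiquitin receptor PSMD4. PSMD1 (chr2:231056845-231173116, plus strand) had 1128 and 822 scaled CPM in IP and 306 and 283 in Input. The fold change, 1.73 ± 0.29 in log2 (SE, n = 2, edgeR adjusted p = 0.0127), was the highest of the 44 tested members, followed by PSMC3 and PSMD2, and it was also called without any 1 library (1.52 to 1.99). PSMD2, which binds ubiquitin-like domains of shuttle factors, was the most abundant member, with 1323 and 997 in IP and 432 and 470 in Input (1.36 ± 0.28, SE, edgeR adjusted p = 0.0193). PSMD4 had 456 and 300 in IP and 223 and 176 in Input. With 0.92 ± 0.30 in log2 it missed the threshold (SE, edgeR adjusted p = 0.0655). Leaving out Input replicate 1 (1.14) or IP replicate 2 (1.24) made it a call.

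The 8 lid genes spread from -0.81 to 1.22 on the log2 scale. PSMD14, the deubiquitinase that removes ubiquitin chains before degradation, had 581 and 426 scaled CPM in IP and 272 and 192 in Input (1.12 ± 0.30, SE, n = 2, edgeR adjusted p = 0.0389). PSMD6 had 356 and 256 in IP and 144 and 119 in Input (1.22 ± 0.28, SE, edgeR adjusted p = 0.0244). These 2 were enriched and showed no overlap between groups. Both lost the call without IP replicate 1 (PSMD14 at 0.92 and PSMD6 at 1.00) or Input replicate 2 (0.74 and 0.93). PSMD14 lost it also with no count filter (1.08), with upper-quartile scaling (0.95) and with RLE size factors (1.09).

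The other 6 lid genes were not called. PSMD8 was close to the limit, at 1.03 with an edgeR adjusted p of 0.0606, and was enriched with DESeq2 (1.06), without Input replicate 1 (1.28) or IP replicate 2 (1.40). PSMD3 (0.58), PSMD7 (0.33), PSMD12 (0.15) and PSMD13 (-0.25) lay nearer to 0. PSMD11, which helps to stabilize the assembled particle, had lower levels in IP, with 130 and 106 scaled CPM against 237 and 174 in Input (-0.81, edgeR adjusted p = 0.0693), and was depleted without Input replicate 2 (-1.16). Lid mRNAs therefore did not share a direction.

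The chaperones that build the base, PSMD5, PSMD9 and PSMD10, had log2 fold changes of -0.77, -0.16 and 0.03, and 0 of 3 were called. PSMD5 was depleted without Input replicate 2 (-1.12). The core assembly chaperones PSMG1 to PSMG4 were lower in both IP libraries than in both Inputs for all 4 genes. This order holds for 31.9% of all tested genes, a share not matched for coding length. The PSMG genes lie in deciles 1 and 3 of coding length, where the median log2 fold changes were -0.81 and -0.36. PSMG2 (chr18:12658043-12728945, plus strand) had 10.3 and 10.8 scaled CPM in IP and 42.8 and 26.9 in Input. The fold change, -1.73 ± 0.29 in log2 (SE, n = 2, edgeR adjusted p = 0.0130), was the lowest of the 44 tested members, followed by PSMB9 and PSMB2, and it was also called without any 1 library (-2.17 to -1.31). Its partner PSMG1 had 23.9 and 19.9 in IP and 57.2 and 35.5 in Input (-1.08 ± 0.29, SE, edgeR adjusted p = 0.0382). PSMG1 lost its call without IP replicate 1 (-1.18), without IP replicate 2 (-0.91) or Input replicate 1 (-0.65). PSMG3 (-0.56) and PSMG4 (-0.76) were not called, and PSMG4 passed without Input replicate 1 (-1.09).

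**Figure D2:**
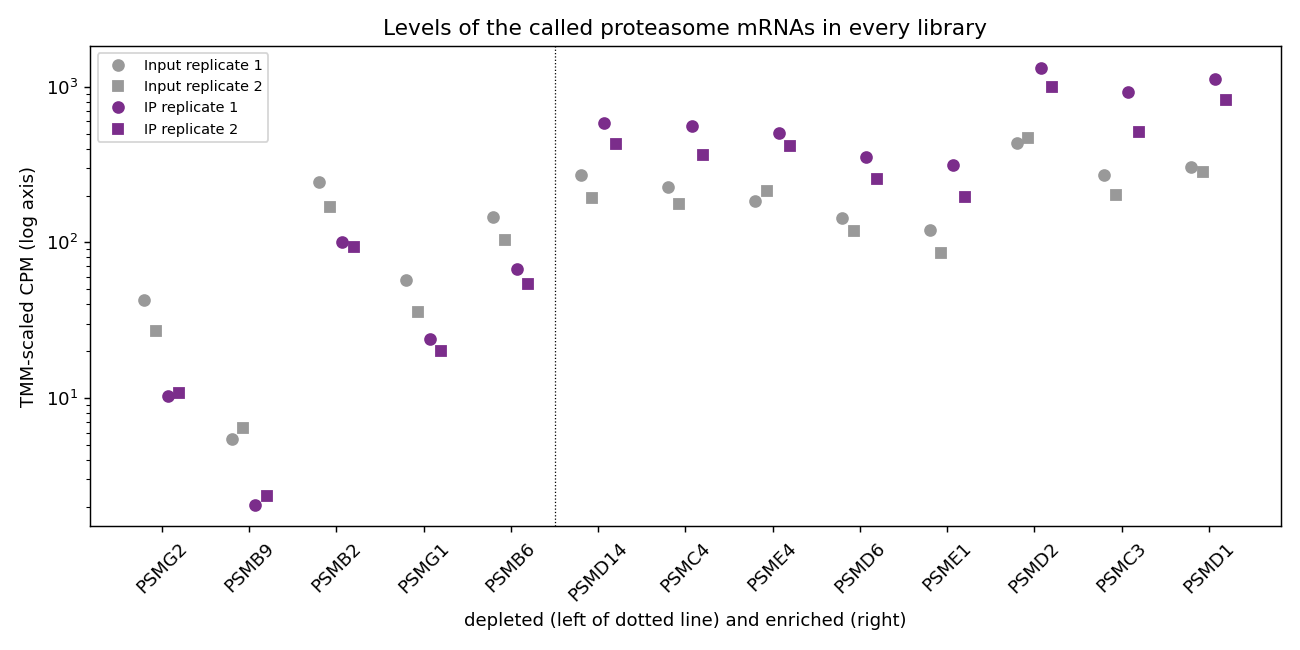
Scaled CPM (log axis) of the 13 called members in each of the 4 libraries, ordered by log2 fold change. In the 5 depleted members on the left both IP libraries lie below both Inputs, from PSMG2 at 10.3 and 10.8 in IP, and in the 8 enriched members on the right both lie above, up to PSMD2 at 1323 and 997 in IP.

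The 4 activator genes, which encode caps that can take the place of the regulatory particle, and the inhibitor gene PSMF1 differed among themselves. PSME4, a single very large protein that opens the core without ATP, had 501 and 417 scaled CPM in IP and 185 and 215 in Input (1.20 ± 0.26, SE, n = 2, edgeR adjusted p = 0.0206). It was also called without any 1 library (1.11 to 1.38). PSME3, which forms the activator found mainly in the nucleus, was lower in IP, with 125 and 98.7 against 229 and 160 in Input, and was not called (-0.80 ± 0.28, SE, edgeR adjusted p = 0.0790). PSMF1 had 64.2 and 53.0 in IP and 107 and 89.4 in Input (-0.75, edgeR adjusted p = 0.0607), not called. Without Input replicate 2, PSME3 (-1.19) and PSMF1 (-1.02) were depleted.

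PSME1 and PSME2 encode the alternating subunits of 1 interferon-induced ring. They lie on chromosome 14 on opposite strands, 4394 bases apart, and have coding lengths of 747 and 717 bases. PSME1 had 315 and 195 scaled CPM in IP and 119 and 85.2 in Input and was enriched (1.32 ± 0.32, SE, n = 2, edgeR adjusted p = 0.0304). PSME2 had 110 and 82.7 in IP and 118 and 83.0 in Input, and differed by -0.06 ± 0.28 in log2 (SE, edgeR adjusted p = 0.892). The groups did not overlap for PSME1 and overlapped for PSME2. The call of PSME1 was lost without IP replicate 1 (0.97) or Input replicate 2 (0.94). PSME2 shares its name with 6 annotated pseudogenes.

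The coding sequences of this pair were compared after their values were seen. GAA occurs 26 times in PSME1 and 22 times in PSME2. Of the 60-base windows that start at a codon, those richest in GAA hold it 8 times in PSME1 (coding bases 211 to 270) and 5 times in PSME2 (coding bases 232 to 291). They are printed 5′ to 3′ from the GENCODE v44 canonical transcripts (GRCh38, PSME1 at chr14:24136163-24138967 on the plus strand, PSME2 at chr14:24143362-24147570 on the minus strand), with GAA in capitals.
PSME1: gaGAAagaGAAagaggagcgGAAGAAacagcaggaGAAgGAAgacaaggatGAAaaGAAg
PSME2: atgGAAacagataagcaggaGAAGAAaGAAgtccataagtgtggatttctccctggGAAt
The window of PSME1 encodes the lysine- and glutamate-rich stretch known as the KEKE motif. No part of these letters in the difference between the 2 mRNAs was tested.

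Core and regulatory subunits were then compared as classes. The median log2 ratio of IP to Input of the 15 tested core mRNAs was -0.69 in replicate 1 and -0.64 in replicate 2. That of the 24 regulatory mRNAs was 0.83 and 0.74, beside medians of all tested genes of 0.05 and -0.02. The difference between the classes was 1.53 in replicate 1 and 1.38 in replicate 2 on the log2 scale (mean 1.45 ± 0.10, SD, n = 2 replicates). It is given as a description with no test, since genes are not replicates and an exact permutation over 2 replicates cannot reach 0.05. Of the core mRNAs, 12 had ratios below 0 and 3 above 0 in both replicates, and of the regulatory mRNAs 6 and 16. Over all tested genes 41.7% were below and 42.9% above 0 in both, shares that are not matched for coding length. The difference of means was smaller, at 1.03, with PSMA4 and PSMA7 among the high core values and PSMD5, PSMD11 and PSME3 among the low regulatory values.

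**Figure D3:**
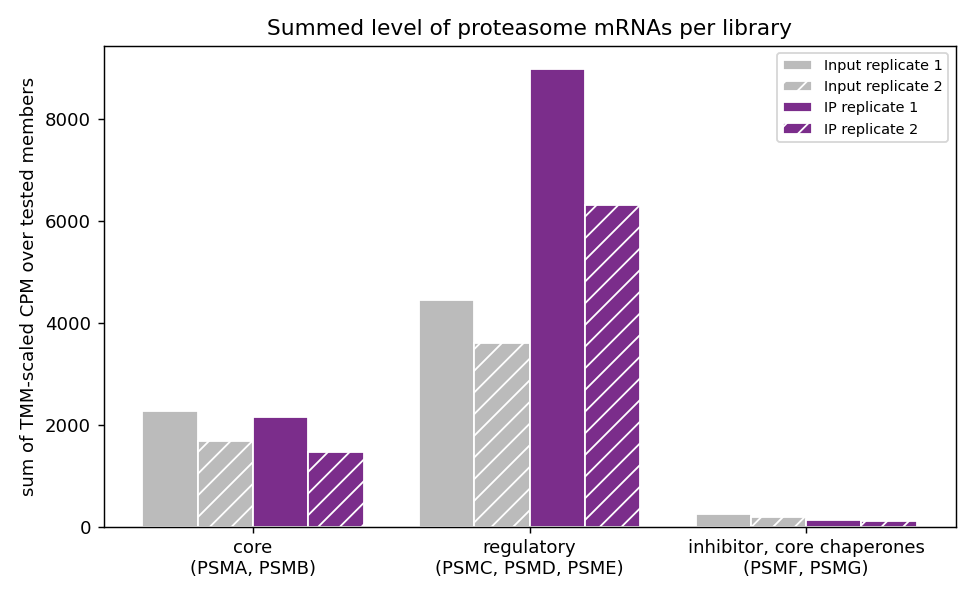
Sum of scaled CPM over the tested members of each class in Input and IP replicates 1 and 2. Regulatory mRNAs sum to 4446 and 3603 in Input and 8977 and 6314 in IP, and core mRNAs to 2269 and 1677 in Input and 2143 and 1464 in IP.

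In summed level, regulatory mRNAs were 2.02 and 1.75 times as high in IP as in Input (replicates 1 and 2), core mRNAs 0.944 and 0.873 times, and the PSMF and PSMG mRNAs 0.492 and 0.592 times. The ratios are on a scale relative to all counted RNA, and in lysates of many cells RNA from fewer cells and less RNA per cell cannot be told apart. Scaling by library size alone shifted the median gene by -0.60 on the log2 scale. It left PSMD1 as the only enriched member and called 16 depleted, while the difference between the classes was 1.41. The shares of all tested genes called in that fit are not given here, so these counts do not set the members apart from other genes.

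Per kilobase of canonical transcript, the mean Input level had a median of 47.9 scaled CPM over the core and 81.9 over the regulatory mRNAs. In IP the medians were 73.8 and 117. The core medians fall on different genes, PSMA4 in Input and PSMB6 in IP, and PSMB6 itself went from 152 in Input to 73.8 in IP. They therefore do not show a rise of core mRNAs in IP, where 12 of the 15 had ratios below 0 in both replicates. Within the constitutive beta ring the Input levels per kilobase ran from 46.6 (PSMB2) to 276 (PSMB4), and within the ATPase ring from 13.6 (PSMC1) to 153 (PSMC3). Subunits of the same ring thus differed in mRNA level in Input. The per-kilobase values depend on the annotated transcript, and the canonical transcripts of PSMB2 and PSMC1 carry long 3′ UTRs (3729 and 3025 bases).

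Coding length moved with the ratios. Over the 44 members, log2 fold change and coding length had a Spearman rho of 0.53, and over 12542 tested protein-coding genes 0.59, where genes share libraries and are not independent. Exonic length gave 0.14 over the members. Within the classes coding length gave 0.36 (core) and 0.38 (regulatory). The core mRNAs are uniformly short, with coding lengths from 603 to 831 bases, and all 15 fall in deciles 2 and 3 of the coding length of all tested protein-coding genes. The regulatory mRNAs run from 669 to 5529 bases. Of all genes in the same deciles as the core mRNAs, 14.9% were depleted, beside 3 of 15 core mRNAs (20%). Of all genes in deciles 3 to 5, 4.14% were enriched, beside 4 of the 14 regulatory mRNAs in those deciles (28.6%). The other regulatory mRNAs lie in deciles 2 (1 of 5 enriched), 6 (0 of 2), 9 (2 of 2) and 10 (1 of 1). Of all genes in these deciles, 2.48%, 6.61%, 24.0% and 46.6% were enriched.

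**Figure D4:**
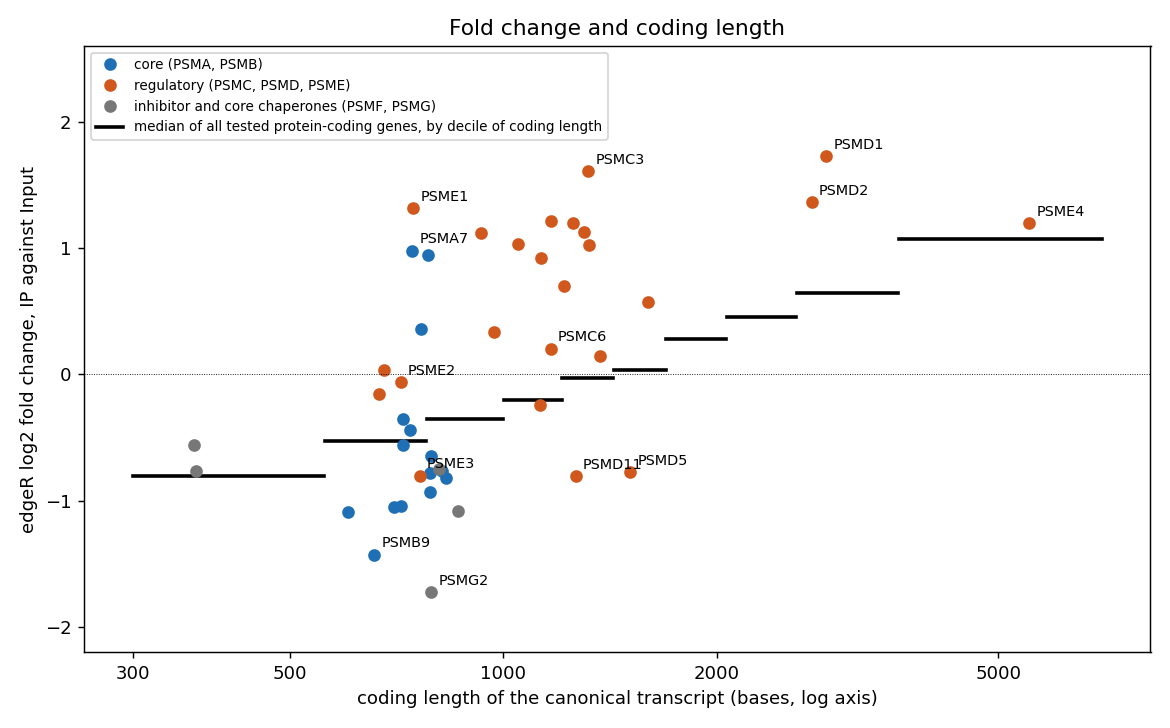
EdgeR log2 fold change of the 44 tested members against the coding length of the canonical transcript (log axis), colored by class. Black bars mark the median of all tested protein-coding genes in each decile of coding length, from -0.81 in the shortest to 1.07 in the longest, and 20 of 24 regulatory but 5 of 15 core mRNAs lie above the bar of their decile.

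Relative to the median of its decile, the median log2 fold change was -0.41 for the core and 0.71 for the regulatory mRNAs. By family it was 0.09 (PSMA), -0.44 (PSMB), 1.10 (PSMC), 0.63 (PSMD) and 0.30 (PSME), so the alpha ring was not below its deciles. This comparison, the next and the shares by decile given above were chosen once the values were known. The class difference in the replicate ratios was then 0.92 and 0.99, in place of 1.53 and 1.38. Among the 13 core and 5 regulatory mRNAs with coding lengths from 669 to 831 bases, it was 0.57 and 0.52. These 5 are PSMD9, PSMD10, PSME1, PSME2 and PSME3, and none of them belongs to the ATPase ring or the lid, so the shared range compares few genes of particular roles. PSME1 lay farthest above its decile (1.84), followed by PSMC3 (1.63) and PSMA7 (1.51), and PSMG2 farthest below (-1.37). PSME4, the longest member, was close to its decile at 0.13.

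Other sequence features were described after the values were seen. The share of purines in the coding sequence had a rho of 0.50 with log2 fold change over the members and 0.31 over all protein-coding genes. Within the 15 core mRNAs it was 0.65, and within the 24 regulatory mRNAs -0.03. The number of exons had a rho of 0.54 over the members and 0.53 over all protein-coding genes. The number of GAAGAA matches, not scaled for length, had 0.46 (0.68 within the core and 0.26 within the regulatory mRNAs), and 0.40 over all protein-coding genes. GAA per kilobase of coding sequence had 0.26 (0.56 within the core and -0.18 within the regulatory mRNAs), and 0.25 over all protein-coding genes. The length of the 3′ UTR had -0.13 over the members (-0.25 within the core and -0.49 within the regulatory mRNAs), and GC content 0.10.

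The proteasome works with factors outside the PSM families, and 25 such genes are reported, all of them tested. Of these, 4 were enriched and 2 depleted, beside 10.5% and 8.3% of all tested genes, with a median log2 fold change of 0.20. The enriched mRNAs were ECPAS (1.76), which encodes a proteasome adaptor, the segregase VCP (1.40) that extracts ubiquitinated proteins, the proteasome-associated thioredoxin TXNL1 (1.23) and the ubiquitin-activating enzyme UBA1 (1.07). Their edgeR adjusted p values ran from 0.0118 (ECPAS) to 0.0303 (UBA1). The depleted mRNAs were POMP (-2.09, edgeR adjusted p = 0.0107), the maturation factor of the core particle, and the deubiquitinase UCHL5 (-1.18, edgeR adjusted p = 0.0355). POMP had 23.6 and 21.9 scaled CPM in IP and 121 and 73.5 in Input. The replicate log2 ratios of UCHL5 were -1.72 and -0.57. In the coding length deciles of ECPAS, VCP, TXNL1 and UBA1, 46.6%, 15.0%, 3.72% and 24.0% of protein-coding genes were enriched. In the deciles of POMP and UCHL5, 34.7% and 11.2% were depleted. The remaining regulatory particle subunits, SEM1 (0.35) and ADRM1 (0.43), and the regulator NFE2L1 (-0.18) were not called.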

How the data were processed

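RNA of 2 anti-FLAG immunoprecipitates and 2 matched nuclear Inputs of transfected HCT116 cells was sequenced after ribosomal RNA depletion. The authors deposited raw counts of reads for each Ensembl gene, not normalized. The submitters' processing notes name Trimmomatic, STAR, featureCounts and the hg19 build. The annotation release, the strand setting and the treatment of reads in shared exons or with several alignments are not stated, although the library kit is stranded. Reads carry no molecular identifiers. The labels do not say whether the replicates were separate cultures, so p-values measure the spread between these samples.

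Symbols, lengths, sequences and coordinates come from GENCODE v44 (GRCh38), joined by Ensembl identifier. Coding length excludes the stop codon. Exon overlaps refer to that annotation, not to the one counted.

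Counts were tested with edgeR 4.0.16 (R 4.3.3): TMM scaling, filterByExpr, robust quasi-likelihood F test, group as the only term, Benjamini-Hochberg adjustment over 14645 genes. Standard errors derive from the fold change and F. Replicate ratios used scaled CPM plus 0.5. The procedure was tested on simulated data. Same-numbered IP and Input libraries come from the same RIP according to the labels, and their deviations from the group means correlated (Pearson r = 0.647 across genes). Alternatives were a term for the replicate block, RLE, library size and upper-quartile scaling, 2 other count filters, DESeq2 1.42.0, limma voom (limma 3.58.1) and leaving out each library. The fits that left out a library had no replicate term, and each split a same-numbered pair. Values were printed for called members, for the 3 highest and 3 lowest by fold change, and for named catalytic, receptor, activator, inhibitor and immunoproteasome genes. Of the listed pathway genes, 2 are not reported here. Members and lists were chosen with earlier results of these data known.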

Additional observations from a re-analysis of the deposited data

How the results depend on the processing

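The number of enriched members was 8 and lay between 7 and 11 under 7 alternatives of scaling, filter, tool or block, and was 1 with scaling by library size alone. Depleted members numbered 5, between 4 and 6 under the same 7 alternatives, and 16 with library size alone. With no fold change minimum 8 and 6 members passed. Apart from the replicate block, the shares of all tested genes called under these alternatives are not given here. The same holds for the fits without 1 library, so these counts cannot be told from a change over all genes. Leaving out 1 library gave from 4 to 14 enriched and from 1 to 13 depleted members, and from 2 to 5 enriched and from 1 to 2 depleted genes of the other 25 (4 and 2 with all libraries), of which 1 was enriched with library size alone. Enriched members numbered 4 without IP replicate 1 or Input replicate 2 and 14 without either of the other 2 libraries, and depleted members 13 without Input replicate 2.

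The difference of the class medians (1.45) was 1.03 with means, 1.58 with edgeR fold changes, 1.57 with those of the replicate block, 1.60 without PSMD5, PSMD9 and PSMD10, 1.56 without the 5 genes that share exons on the same strand, 0.96 relative to the decile of coding length and 0.54 in the shared range of coding length. It was above 0 in every alternative run, from 1.38 to 1.53 with 1 replicate alone. The replicate block changed the calls of PSMC1, PSMC2 and PSMD8 and of no other member. In that fit PSMB5, PSMD4, PSMD5, PSMD11, PSME3 and PSMF1 missed the fold change minimum only. Their edgeR adjusted p values ran from 0.000338 (PSMD4) to 0.000860 (PSMF1).

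Members that changed sign were not called in those fits. With library size alone these were PSMA3 (-0.24), PSMC6 (-0.41), PSMD3 (-0.0372), PSMD7 (-0.26), PSMD10 (-0.58) and PSMD12 (-0.45), and with upper-quartile scaling PSMD10 (-0.14) and PSMD12 (-0.0128). Without Input replicate 2 they were PSMA3 (-0.13), PSMC6 (-0.14), PSMD7 (-0.0326), PSMD10 (-0.28) and PSMD12 (-0.30), and without IP replicate 1 PSMC6 (-0.0045) and PSMD10 (-0.17). Without Input replicate 1 they were PSMA2 (0.14) and PSME2 (0.25), and without IP replicate 2 PSMD9 (0.022) and PSME2 (0.17). Over the fits without 1 library, these members ranged from -1.82 to 0.14 (PSMA2), -0.13 to 0.85 (PSMA3), -0.14 to 0.47 (PSMC6), -0.0326 to 0.63 (PSMD7), -0.34 to 0.022 (PSMD9), -0.28 to 0.30 (PSMD10), -0.30 to 0.56 (PSMD12) and -0.44 to 0.25 (PSME2). The cause was not tested. Without Input replicate 2 the median shift in log2 fold change from the main fit was -0.15. The median log2 fold change of all genes was -0.04 in that fit and 0.01 in the main fit. Depth limits PSMA6, PSMB9 and PSMB10 most, with under 100 counts in each library.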
